A study of Arabidopsis thaliana with 32 samples.

Results

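The 40 genes described here are the nuclear genes for the light-harvesting antenna and for subunits of photosystem I (PSI) and photosystem II (PSII) in Arabidopsis: the LHCB and LHCA families and the PSA and PSB subunit genes. They were taken by gene identifier from a list of names, not by their measured values, and make up 40 of the 37336 genes in the files. By role they are 9 genes of the LHCII trimers, 5 of the minor PSII antenna, 6 of the PSI antenna (LHCI), 11 of PSI subunits, 6 of the oxygen-evolving complex and 3 of small PSII subunits.

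Their mRNA was read by 3′RNA-seq, which counts tags from the 3′ end of transcripts, in 32 libraries: the q-lsu-KO mutant and the wild type (WT, Col-0), each as shoots and as roots, in sulfur-deficient medium [dS] and in sulfur-sufficient medium [nS], with 4 replicates in each of 8 groups. The q-lsu-KO line is a mutant in Col-0 with a deletion in all 4 LSU (RESPONSE TO LOW SULFUR) genes, and WT carries none of these deletions. Every seedling grew on [nS] Hoagland medium for 10 days, then for 5 days on [nS] or on [dS], in which magnesium chloride took the place of magnesium sulfate, and was harvested at 15 days of age. The light period was 8 h and the dark period 16 h, and each sample pooled at least 10 seedlings, so that a library averages over plants and, in shoots, over leaf cell types.

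Library totals ran from 1096342 to 2857129 counts in shoots and from 893225 to 2488983 in roots. LSU2 had 2 to 25 counts in the q-lsu-KO libraries and 192 to 1202 counts in the WT libraries, as labelled, whereas tags of LSU1, LSU3 and LSU4 were present in every q-lsu-KO library. LSU1 averaged 939 ± 92.3 CPM (counts per 1000000 counts of the library) in q-lsu-KO shoots and 144 ± 47.2 CPM in WT shoots in [nS] (SD, n = 4 each). Whether these tags lie inside the deleted stretches is not given in the sources used here, so only LSU2 checks the labels. The 12 root markers summed to 13.8 to 30.9 CPM in shoot libraries and to 624 to 897 CPM in root libraries. The libraries were sequenced in 4 pools, and a pool joined q-lsu-KO and WT libraries of the same tissue and medium. Genotypes were therefore compared within a pool, whereas the effect of sulfur, or of tissue, and that of the pool cannot be told apart. The labels do not say that replicates came from separate cultures, so p-values measure only the spread between these samples.

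Photosynthetic electron transport starts with light absorbed by chlorophyll that is bound to LHCB proteins around PSII and to LHCA proteins around PSI. LHCB1 and LHCB2, with LHCB3, form the LHCII trimers, the most abundant antenna of leaves, and the minor antenna proteins CP29 (LHCB4), CP26 (LHCB5) and CP24 (LHCB6) join trimers to the PSII core. On the lumen side of PSII, PSBO, PSBP, PSBQ and PSBR surround the manganese cluster that oxidises water. LHCA1 to LHCA4 form a belt on PSI, while LHCA5 and LHCA6 link PSI to the chloroplast NADH dehydrogenase-like complex. PSI subunits of nuclear origin dock ferredoxin on the stromal side (PSAD, PSAE) and plastocyanin on the lumenal side (PSAF, PSAN), or lie where LHCII binds to PSI (PSAH, PSAL, PSAO). The reaction-centre proteins themselves are encoded in the plastid genome and do not belong to this set. These nuclear genes are known to be driven by light, by the circadian clock and by the GLK transcription factors.

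The 250 bases before the annotated gene start are shown for 4 genes, a pair of LHCB1 genes and the PSBQ pair, because members of each pair had different values below. LHCB1.4 (AT2G34430; RefSeq calls it LHB1B1) and LHCB1.5 (AT2G34420; LHB1B2) lie head to head on chromosome 2, and PSBQ1 (AT4G21280) and PSBQ2 (AT4G05180) encode the pair of PsbQ isoforms from chromosome 4. The windows were read from TAIR10.1 (RefSeq) at chr2:14524357-14524606 (plus strand) for LHCB1.4, chr2:14523569-14523818 (minus strand) for LHCB1.5, chr4:11334102-11334351 (plus strand) for PSBQ1 and chr4:2673244-2673493 (minus strand) for PSBQ2. Capitals mark matches on either strand to the 8 motifs named after the sequences.
LHCB1.4: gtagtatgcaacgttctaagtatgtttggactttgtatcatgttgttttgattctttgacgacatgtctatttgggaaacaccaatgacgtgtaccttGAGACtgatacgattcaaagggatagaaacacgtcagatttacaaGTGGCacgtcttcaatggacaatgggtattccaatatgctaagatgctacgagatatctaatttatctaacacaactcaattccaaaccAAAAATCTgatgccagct
LHCB1.5: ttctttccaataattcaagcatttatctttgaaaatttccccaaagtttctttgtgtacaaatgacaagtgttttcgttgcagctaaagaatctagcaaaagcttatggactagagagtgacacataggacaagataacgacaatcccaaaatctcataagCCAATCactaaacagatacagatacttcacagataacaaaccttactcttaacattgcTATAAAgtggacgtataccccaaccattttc
PSBQ1: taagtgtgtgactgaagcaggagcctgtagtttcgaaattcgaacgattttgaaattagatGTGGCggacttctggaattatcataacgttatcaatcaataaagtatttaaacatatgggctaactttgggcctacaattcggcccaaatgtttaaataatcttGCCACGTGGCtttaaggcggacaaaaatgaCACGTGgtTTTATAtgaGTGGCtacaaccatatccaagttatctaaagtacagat
PSBQ2: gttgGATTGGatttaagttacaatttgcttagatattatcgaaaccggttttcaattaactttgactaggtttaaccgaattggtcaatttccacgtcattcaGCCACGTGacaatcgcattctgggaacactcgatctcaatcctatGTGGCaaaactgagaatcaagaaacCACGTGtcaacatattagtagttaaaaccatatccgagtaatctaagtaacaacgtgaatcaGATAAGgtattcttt

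Of the light-related motifs, the G-box CACGTG was matched in the windows of 8 of the 40 genes (20.0%) and of 6.49% of 27443 nuclear protein-coding genes. The I-box GATAAG was matched in 9 genes (22.5%), against 12.3% of all, the GLK motif CCAATC in 11 genes (27.5%), against 10.2%, and SORLIP1 GCCAC in 17 genes (42.5%), against 15.4%. SORLIP1 shares letters with the G-box where the sequence reads GCCACGTG. Of the clock motifs, the CCA1-binding site AAAAATCT was matched in 5 genes (12.5%), against 6.69%, and the evening element AAAATATCT in 1 gene, LHCA5 (2.5%), against 2.36%. The sulfur-responsive core GAGAC was matched in 8 genes (20.0%), against 25.8% of all, and TATAAA in 18 genes (45.0%), against 47.3%. In the printed windows, LHCB1.4 held a CCA1-binding site, a SORLIP1 and a GAGAC match, and LHCB1.5 held a GLK and a TATAAA match. Both PSBQ windows held 2 G-boxes, and the I-box and the GLK motif were matched in that of PSBQ2 and not in that of PSBQ1. A match is a run of letters and says nothing of binding.

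In shoots these genes took a large part of the transcriptome. They held 15.7 to 17.1% of all counts in q-lsu-KO [dS] libraries, 17.7 to 18.4% in q-lsu-KO [nS] libraries, 16.1 to 17.3% in WT [dS] and 16.6 to 17.2% in WT [nS]. The q-lsu-KO [nS] libraries thus lay above all other shoot libraries. In roots the same 40 genes held 0.043 to 0.154% of counts. In these bulk samples, fewer cells of a type and less RNA per cell cannot be told apart. All 40 genes were detected in every shoot library, and 37 to 40 of them in each root library.

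Levels are CPM of 3′ tags over the library total, without further scaling, and are not divided by length, since a transcript gives tags at its 3′ end only. By mean CPM over the 16 shoot libraries, the highest was LHCB1.3, an LHCII trimer gene, at 12417 CPM (range 10447 to 14115). LHCB1.5 followed at 9226 CPM (8484 to 9933) and LHCA4, a PSI antenna protein, at 9087 CPM (8449 to 9725), and the ranges of these 2 overlapped. The lowest was LHCB4.3, an isoform of CP29, at 17.6 CPM (12.04 to 24.3), followed by LHCA6 at 182 CPM (140 to 227) and LHCA5 at 225 CPM (196 to 262), whose ranges also overlapped. The other 34 genes averaged 725 CPM (PSAE2) to 7857 CPM (LHCB5). Within paralogue sets, LHCB4.1 (3766 CPM) and LHCB4.2 (2125 CPM) stood far above LHCB4.3, PSBO1 (4331 CPM) above PSBO2 (908 CPM), and PSBQ2 (3109 CPM) above PSBQ1 (1436 CPM). Of the 55-nt windows in the last 500 nt of each transcript, 34 genes shared none with another gene, but 26.5% of those of LHCB2.2 were shared with LHCB2.1, 16.6% of those of LHCB1.3, 9.64% of those of LHCA2, 6.95% of those of LHCB1.2, 4.93% of those of LHCB1.5 and 3.14% of those of LHCB1.4 were shared with other genes, so these 6 counts are less certain. Shared windows of LHCB2.2 occur in LHCB2.1, and some of those of LHCB1.2 and LHCB1.3 occur in LHCB1.1. The counts of LHCB2.1 and LHCB1.1 are therefore less certain too. In addition, 15 genes, LHCB1.5 among them, overlap a gene on the opposite strand, and whether the counting used strand is not given in the sources used here. PSBP1 and PSAD2 overlap a gene on the same strand, which strand could not separate.

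Replicates of the shoots were close to each other. The median coefficient of variation over the 40 genes was 4.83% in [dS] and 3.21% in [nS] in q-lsu-KO, and 4.39% in [dS] and 2.34% in [nS] in WT. For other genes of at least 1000 CPM it was 6.37% in [dS] and 5.12% in [nS] in q-lsu-KO, and 7.36% in [dS] and 4.29% in [nS] in WT. In roots, where the 40 genes had few counts, their median coefficient of variation was 31.2 to 55.3%.

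In WT [nS] libraries, all 40 genes were higher in shoots than in roots by edgeR's quasi-likelihood test (a call needed a fold change above 1.5 besides a Benjamini-Hochberg adjusted p below 0.05), beside 27.9% of all tested genes called higher. Log2 fold changes ran from 4.91 (LHCB4.3) to 10.41 (LHCA6), with a median of 8.38. Next to LHCB4.3 at the low end were LHCA5 (5.98), PSBR (6.64), LHCB1.5 (7.09) and LHCA4 (7.24). Of these, LHCB1.5 (103 CPM), PSBR (98.2 CPM) and LHCA4 (88.0 CPM) had the highest mean levels in roots, and no other gene of the set exceeded 41.7 CPM there (LHCA3). LHCA5, PSBR, LHCB1.5 and LHCA4 all overlap a gene on the opposite strand. Whether tags of the overlapping genes add to their root levels was not tested. The median of all genes between the tissues was −0.10 with edgeR's TMM scaling, −0.31 with upper-quartile scaling and −0.83 with library totals alone, where the median of the 40 genes was 7.65, so the direction does not rest on the scaling. The plot of levels by library sets these values side by side.

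**Figure D1:**
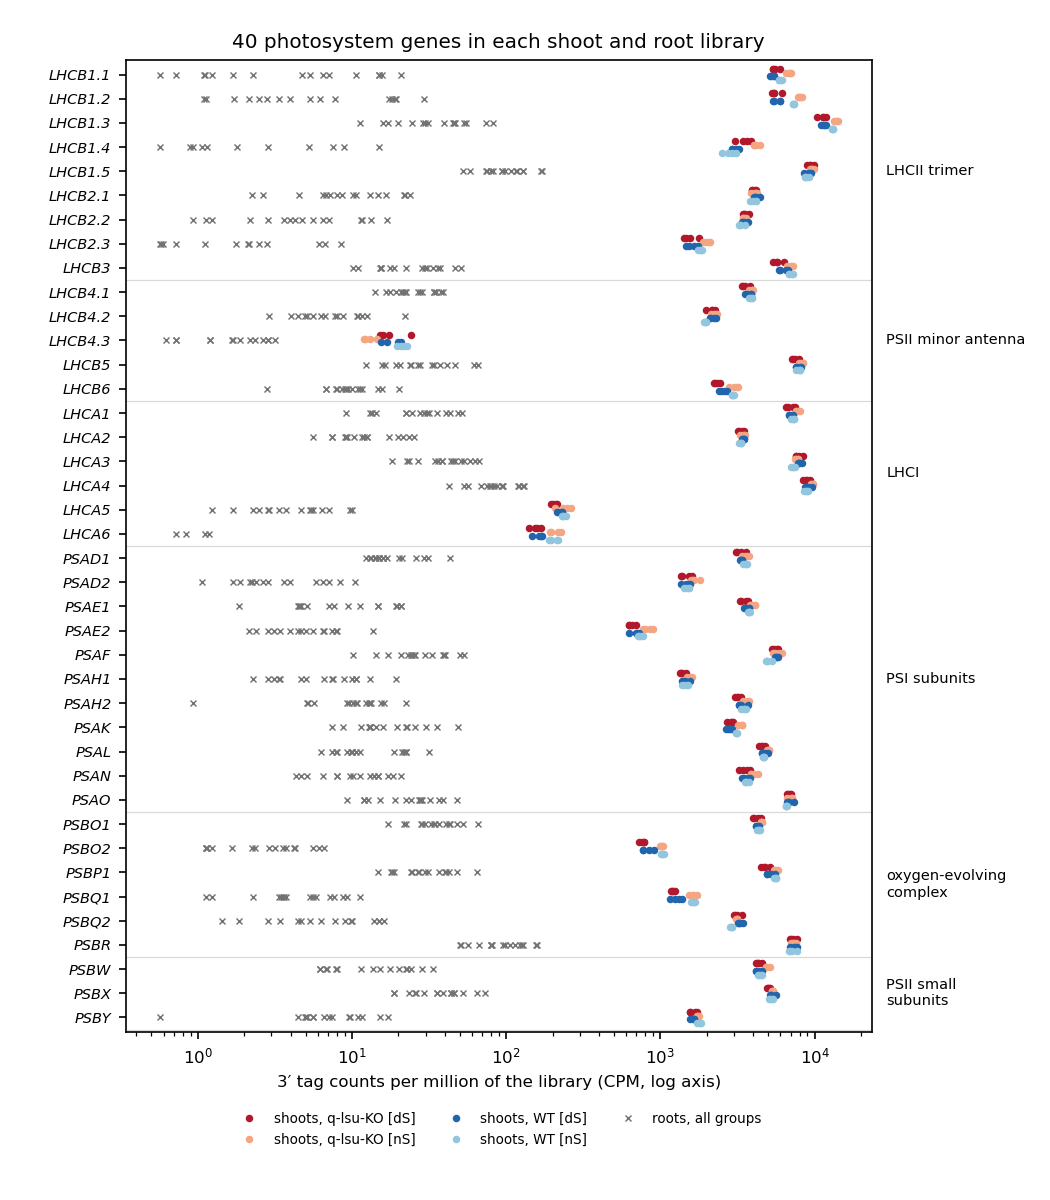
Levels of the 40 photosystem genes in each library, as CPM of 3′ tags on a log axis, with 1 row per gene grouped by role. Coloured points are the 16 shoot libraries by group, and grey crosses are the 16 root libraries (values of 0 are not drawn); every shoot library lies to the right of every root library for each gene, with LHCB4.3 the closest.

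The question of the genotype comparison was whether loss of the LSU genes was accompanied by other levels of these mRNAs. In [nS] shoots, q-lsu-KO had more LHCB1.4 and less LHCB4.3 mRNA than WT, and the other 38 genes were not called (2 of 40 called, beside 4.82% of all 14593 genes tested). The rest differed little, but mostly in 1 direction: 38 of 40 log2 fold changes were positive, with a median of 0.11 beside −0.01 for all genes.

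LHCB1.4, which encodes an LHCII trimer protein, had 4059, 4045, 4445 and 4159 CPM in q-lsu-KO [nS] shoots, against 2912, 2761, 2523 and 3108 CPM in WT [nS] shoots. Every q-lsu-KO library was above every WT library. The log2 fold change was 0.59 ± 0.07 (SE; adjusted p = 3.08e-06), a 1.51-fold difference that lies just past the 1.5-fold limit, and it was at 0.54 with upper-quartile scaling, 0.56 with library totals alone, 0.58 without WT [nS] replicate 2, 0.54 without WT [nS] replicate 3 and 0.56 without q-lsu-KO [nS] replicate 3, all under that limit. Its head-to-head neighbour LHCB1.5 had 9856, 9466, 9573 and 9283 CPM in q-lsu-KO [nS] shoots and 9224, 8655, 8730 and 8861 CPM in WT [nS] shoots, a far smaller difference, although these groups did not overlap either.

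LHCB4.3 had 12.1, 14.5, 12.04 and 13.1 CPM in q-lsu-KO [nS] shoots, against 21.6, 22.9, 20.8 and 19.7 CPM in WT [nS] shoots. The groups did not overlap, but these levels rest on 16 to 21 counts in the q-lsu-KO libraries and on 30 to 44 counts in the WT libraries. Its log2 fold change was −0.70 ± 0.20 (adjusted p = 0.0216). DESeq2 gave an adjusted p of 0.0883 for it, and edgeR's adjusted p was 0.0572 without WT [nS] replicate 1, 0.0641 without WT [nS] replicate 2, and 0.0501, 0.083 and 0.0541 without q-lsu-KO [nS] replicate 1, 3 and 4.

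By adjusted p alone, with no limit on the fold, 8 genes were higher (4.47% of all genes): LHCB1.4 and LHCB1.1 of the LHCII trimers, LHCB4.2 (CP29), LHCA4, the PSI subunits PSAD2, PSAF and PSAN, and PSBW, a small PSII subunit that stabilises the PSII-LHCII supercomplex. PSAF, which docks plastocyanin, had 5561, 5392, 5888 and 6171 CPM in q-lsu-KO [nS] shoots and 4874, 4910, 4889 and 5316 CPM in WT [nS] shoots (log2 fold change 0.23 ± 0.05, adjusted p = 0.0018). LHCB4.2 had 2221, 2124, 2269 and 2329 CPM in q-lsu-KO [nS] shoots, against 1986, 1936, 1911 and 1968 CPM in WT [nS] shoots (0.22 ± 0.05, adjusted p = 0.00535). In these 2 genes the lowest q-lsu-KO library lay above the highest WT library, by a small margin.

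In TMM-scaled levels, the libraries of both genotypes did not overlap and q-lsu-KO [nS] lay above WT [nS] in 20 of the 40 genes, beside 7.28% of all genes, and in CPM over the library total in 18 of them (all but LHCA3 and PSBX), beside 6.37%. The 20 were 6 LHCII trimer genes (LHCB1.1 to LHCB1.5 and LHCB2.3), LHCB4.2, 3 LHCI genes (LHCA1, LHCA3 and LHCA4), 6 PSI subunit genes (PSAD2, PSAF, PSAK, PSAL, PSAN and PSAO), PSBO1 and PSBQ2 of the oxygen-evolving complex, and the small PSII subunits PSBW and PSBX. Summed over the LHCII trimer genes, levels were 56991 to 60217 CPM in q-lsu-KO [nS] shoots and 53480 to 55200 CPM in WT [nS] shoots. Summed over PSI subunits, they were 39857 to 41130 CPM in q-lsu-KO [nS] shoots and 36759 to 38012 CPM in WT [nS] shoots. With upper-quartile scaling, 29 of 40 log2 fold changes were positive and their median was 0.05, beside −0.06 for all genes, and with library totals alone 36 of 40 were positive and their median was 0.08, beside −0.04 for all genes.

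Other measures moved with genotype in the same libraries. The 10 touch and early-stress genes (such as TCH4 and WRKY33) summed to 1077 to 1244 CPM in q-lsu-KO [nS] shoots and to 80.2 to 540 CPM in WT [nS] shoots, with 3 of 10 called higher, beside 3.36% of all genes. In WT [nS] shoots the sum rose with the replicate number, at 80.2, 186, 317 and 540 CPM. The cause of this rise was not tested. Of the clock genes, CCA1 was lower (−0.59 ± 0.15, adjusted p = 0.00826) and TOC1 was higher (1.08 ± 0.27, adjusted p = 0.00768) in q-lsu-KO [nS] shoots. The part of these in the differences of the photosystem genes was not tested. The 8 leaf markers, all genes of the Calvin cycle, summed to 32398 to 35674 CPM in q-lsu-KO [nS] shoots and to 38622 to 40544 CPM in WT [nS] shoots, which is the opposite order to that of the photosystem genes.

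In [dS] shoots, no photosystem gene was called between q-lsu-KO and WT (0 of 40, beside 4.17% of all genes), by edgeR or by DESeq2, and 1 had an unadjusted p under 0.05, beside 17.6% of all genes. Log2 fold changes were positive in 14 of 40 genes, with a median of −0.01. The number of positive values ran from 3 to 22 over the scalings tried and was 24 with organelle genes left out. LHCB1.4 had 3035, 3860, 3641 and 3412 CPM in q-lsu-KO [dS] shoots and 3076.3, 3220, 2897 and 2910 CPM in WT [dS] shoots, with a log2 fold change of 0.23 ± 0.07 (adjusted p = 0.0507). Its groups overlapped through replicate 1 of q-lsu-KO. LHCB4.3 had 24.3, 15.8, 17.3 and 15.3 CPM in q-lsu-KO [dS] shoots, against 15.4, 20.7, 20.0 and 16.8 CPM in WT [dS] shoots, so that its groups overlapped fully. The touch and early-stress genes were higher in q-lsu-KO under [dS] too, at 1174 to 1737 CPM in q-lsu-KO shoots and 116 to 944 CPM in WT shoots, with 5 of 10 called higher, beside 3.53% of all genes. Their sum in WT [dS] shoots again rose with the replicate number, at 116, 177, 480 and 944 CPM.

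Whether the genotype difference itself depended on sulfur was tested as an interaction. No gene of the set was called (0 of 40, beside 0.425% of all genes). DESeq2 called 0 as well. By edgeR, 14 of 40 genes had an unadjusted p under 0.05, beside 6.17% of all genes. The interaction terms were negative in 38 of 40 genes, with a median of −0.12. LHCB1.4 had an interaction of −0.36 ± 0.10 (adjusted p = 0.179), and LHCB4.3 had 0.71 ± 0.26 (adjusted p = 0.509). A difference between [dS] and [nS] in the effect of genotype was therefore not shown for either gene.

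The other comparison asked how the photosystem mRNAs stood after 5 days of S deficiency. In shoots, no gene of the set passed both thresholds between [dS] and [nS]: 0 of 40 in q-lsu-KO, beside 12.1% of all genes called, and 0 of 40 in WT, beside 11.4%. DESeq2 called 0 in each genotype as well, and 34 genes in q-lsu-KO and 23 in WT had an unadjusted p under 0.05 by edgeR, beside 32.5% of all genes in q-lsu-KO and 33.4% in WT. Most of the set nonetheless had slightly lower levels in [dS], with 39 of 40 negative log2 fold changes and a median of −0.23 in q-lsu-KO, and with 34 of 40 and a median of −0.11 in WT. The medians of all genes were 0.00 in q-lsu-KO and 0.02 in WT. The q-lsu-KO [nS] libraries, highest in their share of counts, also enter the genotype comparison in [nS] and the interaction. The shared directions in these comparisons are therefore not separate results, nor are the 40 genes of the same libraries separate measures. In q-lsu-KO, 1 gene was called without [dS] replicate 2, [nS] replicate 2 or [nS] replicate 4.

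How many values were negative depended on the scaling, more so in WT, as an alternative chosen after seeing the data showed. With library totals alone, 36 of 40 values were negative in q-lsu-KO, with a median of −0.16 beside 0.08 for all genes, and 25 of 40 were negative in WT, with a median of −0.04 beside 0.09 for all genes. Under both scalings the median of the set lay below that of all genes. The 40 genes took 16.2 ± 0.61% of counts in q-lsu-KO [dS] shoots and 18.1 ± 0.36% in q-lsu-KO [nS] shoots, without overlap, and 16.5 ± 0.52% in WT [dS] shoots and 17.0 ± 0.24% in WT [nS] shoots, with overlap (SD, n = 4 each).

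With the adjusted p alone, 29 of 40 genes were lower in [dS] in q-lsu-KO shoots, beside 11.7% of all genes, and 14 of 40 in WT shoots, beside 12.3%. All 14 WT genes were among the 29 of q-lsu-KO. In TMM-scaled levels, the 4 libraries of [dS] lay below all those of [nS] in 29 genes in q-lsu-KO (11.4% of all genes) and in 19 genes in WT (12.7% of all genes), and 18 genes did so in both, which is 62.1% of the q-lsu-KO genes and 94.7% of the WT genes. In CPM over the library total these numbers were 25 in q-lsu-KO (8.98% of all genes), 12 in WT (10.2%) and 11 in both, which is 44.0% of the q-lsu-KO genes and 91.7% of the WT genes. The numbers in the genotypes differ, but the interaction given above called no gene, so a difference in response between genotypes was not shown.

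By role, the LHCII trimer genes had median log2 fold changes, [dS] over [nS], of −0.35 in q-lsu-KO and −0.23 in WT, and the minor antenna genes of −0.22 in q-lsu-KO and −0.12 in WT. The oxygen-evolving complex had −0.24 in q-lsu-KO and −0.14 in WT, PSI subunits −0.25 in q-lsu-KO and −0.08 in WT, LHCI −0.20 in q-lsu-KO and −0.08 in WT, and the small PSII subunits −0.18 in q-lsu-KO and −0.10 in WT. By adjusted p alone, 6 of 9 LHCII trimer genes, 3 of 5 minor antenna genes, 4 of 6 LHCI genes, 9 of 11 PSI subunit genes, 4 of 6 oxygen-evolving genes and 3 of 3 small-subunit genes were lower in q-lsu-KO. In WT these numbers were 5 of 9, 1 of 5, 1 of 6, 3 of 11, 3 of 6 and 1 of 3.

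The value farthest from 0 in both genotypes was that of LHCB1.2, an LHCII trimer gene. It had 5484, 6174, 5486 and 5311 CPM in q-lsu-KO [dS] shoots, against 8070, 7924, 8234 and 7758 CPM in q-lsu-KO [nS] shoots (log2 fold change −0.58 ± 0.05, adjusted p = 6.49e-12). In WT it had 6003, 5998, 5465 and 5367 CPM in [dS] shoots, against 7204, 7303, 7391 and 7398 CPM in [nS] shoots (−0.43 ± 0.05, adjusted p = 1.16e-08). The [dS] and [nS] libraries were well apart in both genotypes, yet neither value reached the 1.5-fold limit.

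PSBQ1 and PSBO2 encode the minor isoforms of PsbQ and PsbO at the oxygen-evolving complex. PSBQ1 had 1207, 1248, 1179 and 1181 CPM in q-lsu-KO [dS] shoots and 1625, 1640, 1734 and 1539 CPM in q-lsu-KO [nS] shoots (−0.51 ± 0.06, adjusted p = 2.79e-09). In WT it had 1372, 1324, 1245 and 1160 CPM in [dS] shoots and 1584, 1645, 1619 and 1667 CPM in [nS] shoots (−0.42 ± 0.06, adjusted p = 1.57e-07). All [dS] libraries of PSBQ1 were below all [nS] libraries. PSBO2 had 725, 763, 780 and 785 CPM in q-lsu-KO [dS] shoots, against 1022, 1045, 1011 and 995 CPM in q-lsu-KO [nS] shoots. Its WT levels were 909, 844, 768 and 774 CPM in [dS] shoots, against 1029, 1007, 1021 and 1050 CPM in [nS] shoots, and again no [dS] library reached an [nS] library. Its log2 fold changes were −0.49 ± 0.06 in q-lsu-KO and −0.39 ± 0.06 in WT.

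LHCA6, one of the linkers to the NADH dehydrogenase-like complex, had log2 fold changes of −0.49 ± 0.08 in q-lsu-KO and −0.41 ± 0.08 in WT. LHCB6 (CP24) had −0.47 ± 0.06 in q-lsu-KO and −0.28 ± 0.05 in WT, and LHCB2.3 had −0.44 ± 0.07 in q-lsu-KO and −0.25 ± 0.07 in WT. These genes had adjusted p under 0.05 and no overlap of [dS] and [nS] in either genotype, as for the genes before.

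A few genes went the other way or stayed close to 0. PSBQ2, the major PsbQ gene, had 3148, 3360, 3005 and 3062 CPM in q-lsu-KO [dS] shoots and 3121, 3079, 3118 and 3143 CPM in q-lsu-KO [nS] shoots (−0.06). In WT it had 3443, 3250, 3169 and 3306 CPM in [dS] shoots and 2926, 2883, 2809 and 2917 CPM in [nS] shoots (0.12, adjusted p = 0.074). In WT all its [dS] libraries lay above its [nS] libraries, whereas in q-lsu-KO they overlapped. In TMM-scaled levels it was the only gene of the 40 to do so in WT, beside 11.2% of all genes. In CPM over the library total, 6 of 40 genes did so in WT (LHCA2, LHCA3, LHCB4.2, PSAF and PSAO besides PSBQ2), a share near the 14.8% of all genes, and LHCB4.3 alone did so in q-lsu-KO, beside 14% of all genes. Of these, PSAF had log2 fold changes of −0.12 in q-lsu-KO and 0.11 in WT, and LHCB4.2 had −0.14 in q-lsu-KO and 0.09 in WT.

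LHCB1.3, the most abundant gene of the 40, had 11345, 11841, 11328 and 10447 CPM in q-lsu-KO [dS] shoots, against 14115, 13718, 14050 and 13380 CPM in q-lsu-KO [nS] shoots (−0.37 ± 0.05, adjusted p = 2.35e-08). In WT it had 11823, 11541, 11471 and 11055 CPM in [dS] shoots, against 13233, 13029, 13261 and 13043 CPM in [nS] shoots (−0.26 ± 0.05, adjusted p = 1.38e-05). Its [dS] libraries lay below its [nS] libraries in both genotypes, as did those of LHCB1.1 (−0.37 ± 0.05 in q-lsu-KO and −0.25 ± 0.05 in WT), whereas LHCB2.1 (−0.08 ± 0.05 in q-lsu-KO and −0.02 ± 0.05 in WT) overlapped. Among PSI subunits, PSAK had 2704, 2897, 2937 and 2856 CPM in q-lsu-KO [dS] shoots and 3393, 3388, 3404 and 3208 CPM in q-lsu-KO [nS] shoots (−0.31 ± 0.05, adjusted p = 8.65e-06). Its WT levels were 2927, 2819, 2683 and 2730 CPM in [dS] shoots and 3104, 3136, 3080 and 3123 CPM in [nS] shoots (−0.23 ± 0.05, adjusted p = 0.000559), and the [dS] and [nS] libraries of PSAK did not overlap in either genotype.

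**Figure D2:**
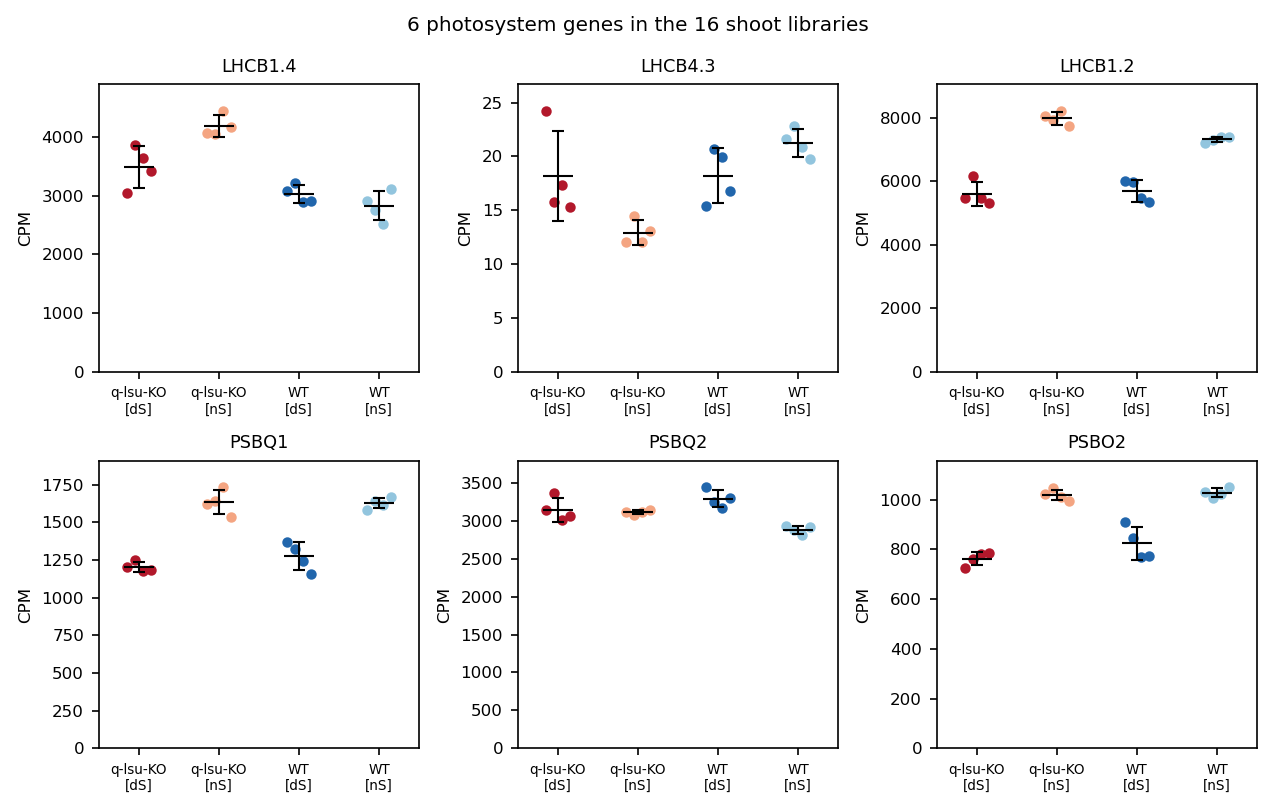
Levels of 6 photosystem genes in the 16 shoot libraries, in CPM on axes that start at 0. Points are libraries and bars show the mean ± SD of 4 libraries per group; LHCB1.4 is highest in q-lsu-KO [nS] and LHCB4.3 lowest there, while LHCB1.2, PSBQ1 and PSBO2 are lower in [dS] than in [nS] in both genotypes and PSBQ2 is not.

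**Figure D3:**
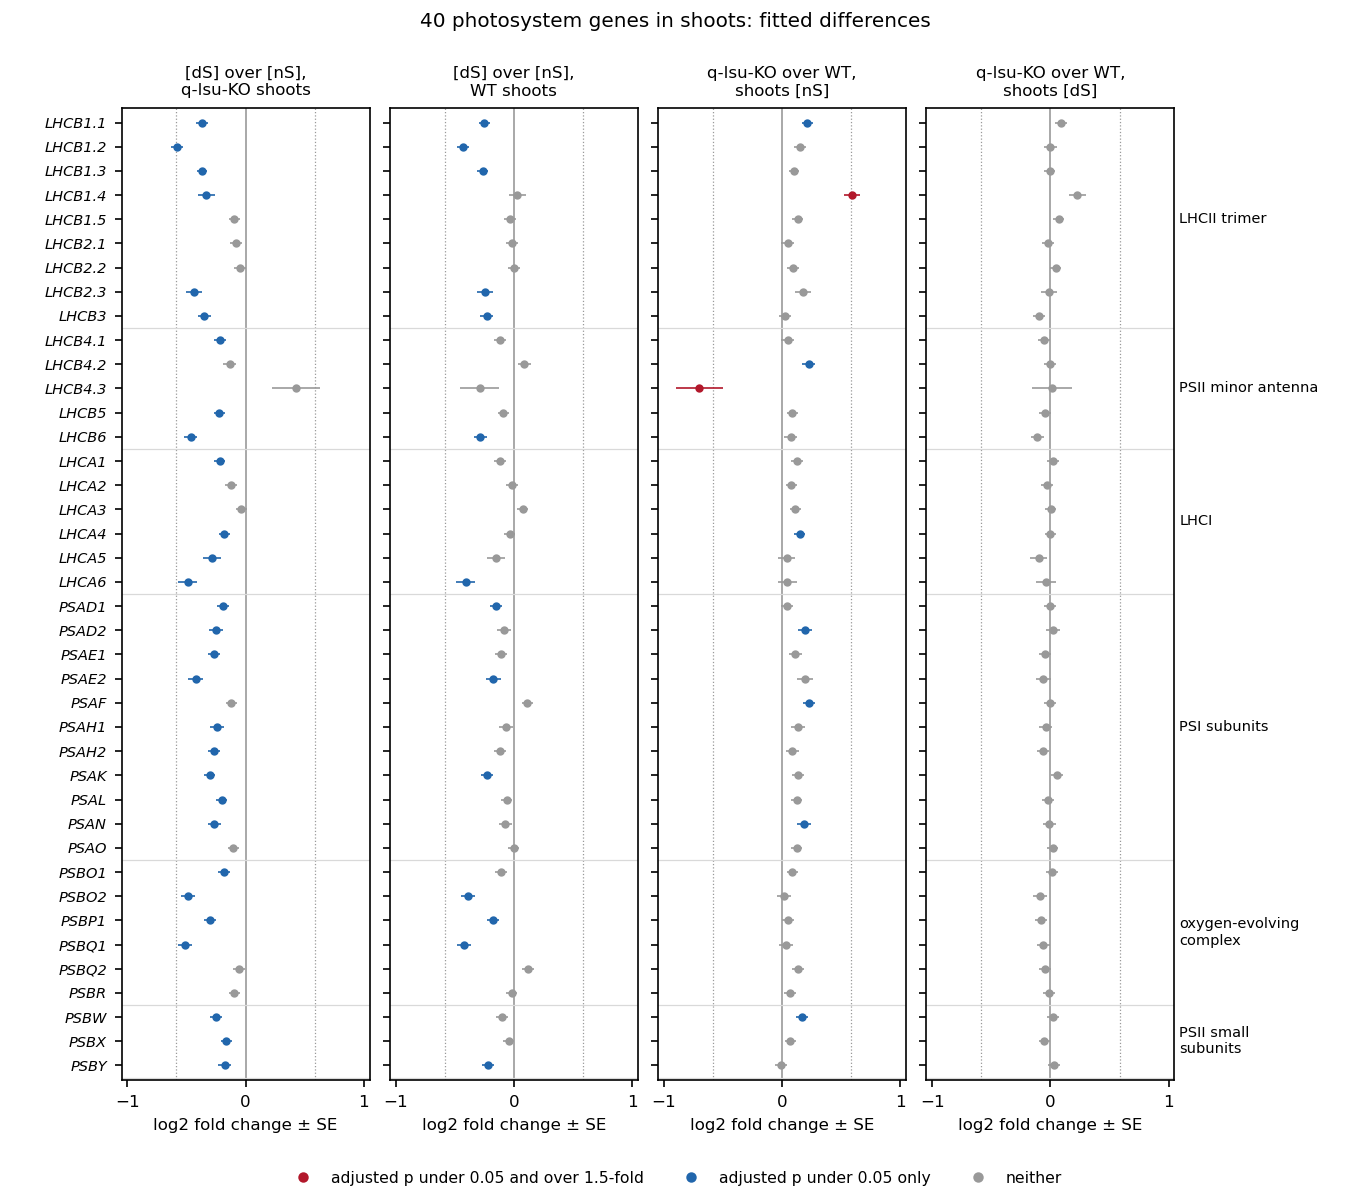
Fitted log2 fold change ± SE of each of the 40 photosystem genes in 4 shoot comparisons, with 1 row per gene grouped by role. Dotted lines mark the 1.5-fold limits; most values of [dS] over [nS] lie left of 0 within the limits, those of q-lsu-KO over WT in [nS] lie slightly right of 0, and only LHCB1.4 and LHCB4.3 pass both thresholds.

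The unlike values of paralogues were put as shares of counts within a set of related genes, which the scaling of libraries cannot move. In all, 16 shares were compared in 4 shoot comparisons by a two-sided exact permutation test of 4 libraries against 4, whose smallest possible p is 0.0286. After adjustment over the 64 tests the smallest adjusted p was 0.0703, so none passed, and the shares are given as values. PSBQ1 made up 27.7 ± 0.46% of PSBQ counts in q-lsu-KO [dS] shoots and 34.4 ± 1.20% in q-lsu-KO [nS] shoots, and 27.9 ± 1.32% in WT [dS] shoots and 36.1 ± 0.66% in WT [nS] shoots (SD, n = 4 each). PSBO1 made up 84.6 ± 0.71% of PSBO counts in q-lsu-KO [dS] shoots and 81.7 ± 0.35% in q-lsu-KO [nS] shoots, and 83.7 ± 0.78% in WT [dS] shoots and 80.9 ± 0.51% in WT [nS] shoots. In both sets the [dS] libraries did not overlap the [nS] libraries in either genotype.

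Within LHCB1, LHCB1.2 had a share of 15.9 ± 0.58% in q-lsu-KO [dS] shoots and 18.9 ± 0.09% in q-lsu-KO [nS] shoots, and of 16.5 ± 0.71% in WT [dS] shoots and 19.2 ± 0.34% in WT [nS] shoots. LHCB1.5 had the opposite order, with 26.6% in [dS] and 22.5% in [nS] in q-lsu-KO, and 26.3% in [dS] and 23.2% in [nS] in WT. Between genotypes in [nS], LHCB1.4 made up 9.86 ± 0.39% of LHCB1 counts in q-lsu-KO shoots and 7.40 ± 0.59% in WT shoots, with no overlap of libraries. LHCB4.2 likewise made up 36.3 ± 1.42% of LHCB4 counts in q-lsu-KO [nS] shoots and 33.4 ± 0.37% in WT [nS] shoots. The antenna of PSII as a share of all LHC counts was 70.5% in [dS] and 72.5% in [nS] in q-lsu-KO, and 70.4% in [dS] and 72.4% in [nS] in WT, so that LHCB made up slightly less of the antenna counts in [dS]. Of the 16 shares, 9 in q-lsu-KO and 11 in WT did not overlap between [dS] and [nS], 6 did not overlap between genotypes in [nS], and none between genotypes in [dS]. The shares are not separate measures, because those within LHCB1 or within LHCB4 add up to the whole and a single shift can be counted repeatedly. Each share with no overlap had the smallest exact p, 0.0286 (adjusted p = 0.0703).

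**Figure D4:**
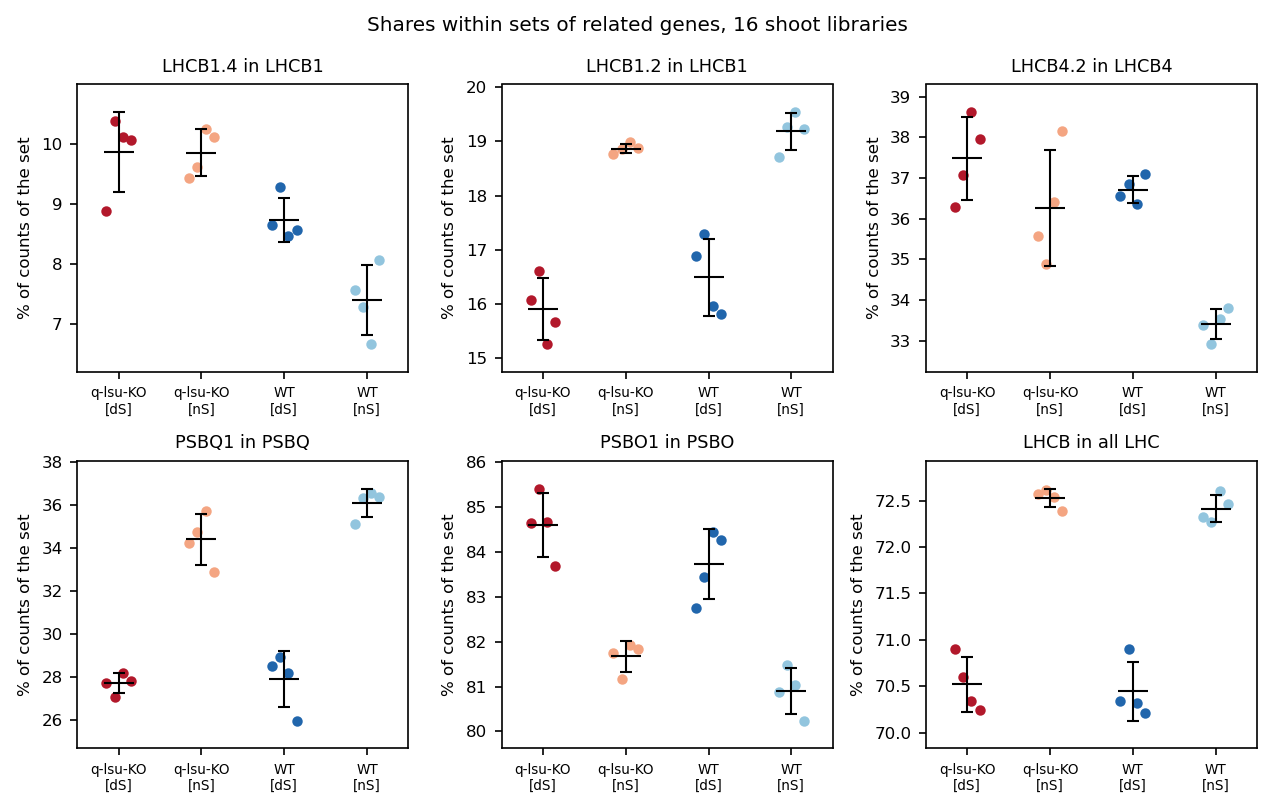
Shares of 1 gene or family in the summed counts of its set in the 16 shoot libraries, in percent, with each panel on its own axis that does not start at 0. Points are libraries and bars the mean ± SD of 4 libraries per group; PSBQ1 in PSBQ and LHCB1.2 in LHCB1 are lower and PSBO1 in PSBO higher in [dS] than in [nS] in both genotypes, and the share of LHCB1.4 in LHCB1 in [nS] is higher in q-lsu-KO.

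Genes of other photosynthetic steps were read beside the set, [dS] over [nS] in shoots. Of all genes tested, 5.44% were called lower and 6.62% higher in q-lsu-KO, and 5.24% lower and 6.18% higher in WT. Of 18 Calvin cycle genes, 8 fell in q-lsu-KO and 10 in WT and none rose, with medians of −0.53 in q-lsu-KO and −0.62 in WT, and RBCS1B, a Rubisco small subunit gene, had −0.85 ± 0.07 in q-lsu-KO and −1.22 ± 0.07 in WT. Of 6 other photosystem genes, 2 fell in each genotype: PSB27, a PSII repair factor (−1.15 ± 0.08 in q-lsu-KO and −1.24 ± 0.08 in WT), and PSB28, which takes part in PSII assembly (−1.004 ± 0.093 in q-lsu-KO and −1.04 ± 0.09 in WT). Of 14 genes of electron transport and ATP synthase, 2 fell in each genotype, among them PETE2, the major plastocyanin (−0.62 ± 0.05 in q-lsu-KO and −0.61 ± 0.05 in WT). The medians of the electron transport list were −0.22 in q-lsu-KO and −0.21 in WT and those of the other photosystem genes −0.45 in q-lsu-KO and −0.41 in WT, beside −0.23 in q-lsu-KO and −0.11 in WT for the 40 genes, and differences between the lists were not tested.

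Clock genes moved in the same libraries. Of 10 clock genes 8 were tested, and PRR5, TOC1 and ELF4 rose in [dS] shoots of both genotypes. Their log2 fold changes were 1.23 ± 0.28 (PRR5), 0.80 ± 0.21 (TOC1) and 2.34 ± 0.52 (ELF4) in q-lsu-KO, and 1.51 ± 0.31 (PRR5), 1.18 ± 0.24 (TOC1) and 1.20 ± 0.41 (ELF4) in WT. CCA1 fell in WT (−0.68 ± 0.14) and had −0.38 ± 0.16 in q-lsu-KO, where it was not called. The part of the clock genes in the values of the photosystem genes was not tested.

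Of 15 tested chlorophyll synthesis genes, 3 were called lower in q-lsu-KO and 1 in WT. Their log2 fold changes were negative in 15 genes in q-lsu-KO (median −0.43) and in 14 in WT (median −0.30). CHLI1, a subunit of magnesium chelatase, fell in both (−0.87 ± 0.08 in q-lsu-KO and −0.64 ± 0.08 in WT). Of 6 chlorophyll breakdown genes, PPH (pheophytinase) rose in q-lsu-KO (0.61 ± 0.12) and none in WT. Among 11 regulators of these genes, GLK1 rose in q-lsu-KO (0.72 ± 0.14), and PIF1 (−0.63 ± 0.21) and GNL (−1.01 ± 0.29) fell in WT. Of 4 light-stress genes of the LHC type, LIL3_1 fell in q-lsu-KO (−0.71 ± 0.08) and none was called in WT.

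Between genotypes in [nS] shoots, no Calvin cycle, electron transport or other photosystem gene was called, beside 3.36% of all genes called higher and 1.47% called lower. Of the chlorophyll synthesis genes PORB, a protochlorophyllide reductase, was higher in q-lsu-KO (0.74 ± 0.12). Of the regulators PIF5 was higher (0.68 ± 0.10), and GLK1 (−0.64 ± 0.14), GNC (−0.72 ± 0.16) and GNL (−1.44 ± 0.35) were lower. The part of these regulators in the values of the photosystem genes was not tested. In [dS] shoots, PIF5 (0.61 ± 0.10) was the only call in these lists.

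In roots the photosystem mRNAs were scarce, and 33 of the 40 genes passed the filter on low counts. The 7 that did not were LHCB1.4, LHCB2.3, LHCB4.3, LHCA5, LHCA6, PSAD2 and PSBO2. In [dS], 7 genes were lower than in [nS] in q-lsu-KO roots, beside 3.38% of all 15971 genes called lower, and 4 genes were lower in WT roots, beside 3.42%. PSBP1 and PSBR were called in both (28.6% of the q-lsu-KO genes and 50.0% of the WT genes). All 33 tested genes had negative log2 fold changes in both genotypes, with medians of −0.90 in q-lsu-KO and −0.61 in WT beside 0.01 for all genes in each, and with no filter on low counts 39 of 40 were negative in q-lsu-KO and 38 of 40 in WT. Without 1 library at a time the median ran from −1.08 (without [nS] replicate 1) to −0.56 (without [nS] replicate 4) in q-lsu-KO, and from −0.86 (without [dS] replicate 3) to −0.28 (without [nS] replicate 3, where 25 of 33 were negative) in WT.

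PSBR, a lumenal subunit that helps PSBP to bind, had 56.8, 79.8, 67.0 and 80.8 CPM in q-lsu-KO [dS] roots, against 98.5, 126, 158 and 156 CPM in q-lsu-KO [nS] roots (−0.996 ± 0.208, adjusted p = 0.00536). In WT it had 50.3, 79.8, 95.1 and 51.1 CPM in [dS] roots, against 122, 115, 129 and 105 CPM in [nS] roots (−0.78 ± 0.19, adjusted p = 0.0151). The [dS] libraries lay below the [nS] libraries in both genotypes. PSBP1, which helps hold calcium and chloride at the manganese cluster, had 18.2, 24.5, 24.1 and 18.7 CPM in q-lsu-KO [dS] roots, against 26.9, 40.3, 42.4 and 64.5 CPM in q-lsu-KO [nS] roots (−1.12 ± 0.26, adjusted p = 0.00651). Its WT levels were 18.0, 29.9, 31.2 and 14.8 CPM in [dS] roots and 36.6, 40.6, 47.8 and 27.1 CPM in [nS] roots (−0.76 ± 0.24, adjusted p = 0.0366), and here the groups overlapped.

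The other 5 genes called lower in q-lsu-KO roots were LHCB4.1 and LHCB4.2 (CP29), PSAE2 (ferredoxin docking), PSAK (a PSI subunit beside LHCI) and PSBW. Their log2 fold changes ran from −1.58 ± 0.45 (PSBW) to −0.72 ± 0.23 (LHCB4.1). LHCB4.2 had 6.25, 2.88, 4.01 and 7.99 CPM in q-lsu-KO [dS] roots and 6.72, 10.9, 11.7 and 22.2 CPM in q-lsu-KO [nS] roots (−1.44 ± 0.35, adjusted p = 0.00207), with an overlap through the lowest [nS] library. PSAE2 had 3.98, 2.16, 2.87 and 4.44 CPM in q-lsu-KO [dS] roots, against 7.84, 6.54, 7.43 and 13.6 CPM in q-lsu-KO [nS] roots, with no overlap. In WT roots PSAE2 had 3.10, 6.45, 5.56 and 3.40 CPM in [dS] and 5.00, 2.39, 8.04 and 4.67 CPM in [nS], which overlapped fully.

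In WT roots the further calls were PSBX and PSBY, small membrane subunits of PSII. PSBX had 18.6, 35.8, 35.6 and 18.7 CPM in WT [dS] roots, against 52.5, 44.2, 64.7 and 45.7 CPM in WT [nS] roots (−0.96 ± 0.27, adjusted p = 0.0259), with no overlap. PSBY had 4.96, 7.04, 5.56 and 0.567 CPM in WT [dS] roots and 11.7, 6.56, 15.3 and 5.598 CPM in WT [nS] roots (−1.21 ± 0.39, adjusted p = 0.0341), where the groups overlapped.

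Of the genes called in roots, PSBP1, PSBR, LHCB4.2 and PSAE2 overlap a gene on the opposite strand, and PSBP1 overlaps another on the same strand. The part of tags from those genes in the root values was not tested. The root calls depended on which libraries were used. Without 1 library at a time, the number called lower ran from 2 (without q-lsu-KO [nS] replicate 4) to 10 (without q-lsu-KO [nS] replicate 1) in q-lsu-KO roots, where PSBP1 and PSBR were called without any 1 library, and LHCB4.2 and PSAE2 without any but q-lsu-KO [nS] replicate 4. In WT roots it ran from 0 (without WT [nS] replicate 3) to 9 (without WT [nS] replicate 4), with 1 without [dS] replicate 1 or 4, 2 without [nS] replicate 1 and 7 without [dS] replicate 2, and PSBR lost its call without [nS] replicate 3 (adjusted p = 0.0578) and no other library. Of the 8 leaf markers, 6 to 8 were detected in each root library, and 0 of the 6 tested were called between [dS] and [nS] in either genotype. Their sum was 65.9 to 88.8 CPM in q-lsu-KO [dS] roots and 63.8 to 175 CPM in q-lsu-KO [nS] roots. In WT it was 52.2 to 190 CPM in [dS] roots and 95.2 to 227 CPM in [nS] roots, so that the media overlapped in both genotypes. WT [dS] replicates 2 and 3, with 190 and 174 CPM of leaf markers, also held more of the photosystem genes (0.0968 and 0.0991% of counts) than replicates 1 and 4, with 56.5 and 52.2 CPM and with 0.0441 and 0.0432% of counts. Genes of the plastid genome had the opposite order to the set between media. They held 0.367 to 0.405% of counts in q-lsu-KO [dS] roots and 0.241 to 0.357% in q-lsu-KO [nS] roots. In WT they held 0.370 to 0.389% in [dS] roots and 0.236 to 0.294% in [nS] roots. The part of green tissue in the root values was not tested.

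Between genotypes, no photosystem gene was called in roots, by edgeR or by DESeq2. In [nS] it was 0 of 33, beside 0.163% of all genes, with 1 gene at an unadjusted p under 0.05 (7.56% of all genes), and in [dS] it was 0 of 33, beside 0.157%, with 0 genes at an unadjusted p under 0.05 (7.63% of all genes). The interaction in roots called 0 of 33 as well, beside 0.025% of all genes, with 1 gene at an unadjusted p under 0.05 (6.09% of all genes).

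**Figure D5:**
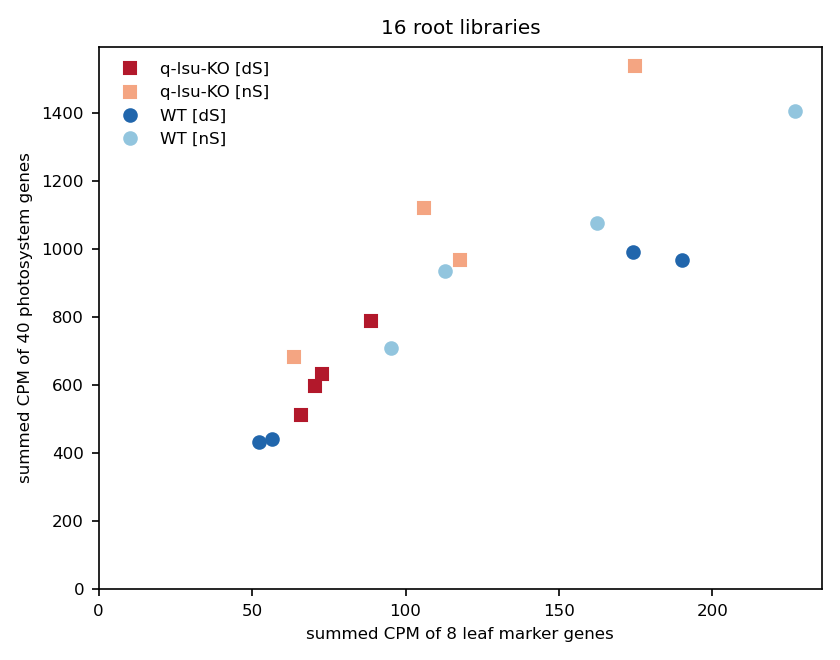
Summed CPM of the 40 photosystem genes (vertical axis) against the summed CPM of 8 leaf marker genes (horizontal axis) in the 16 root libraries, both from 0. Points are libraries by group. In every group the library with the lowest leaf marker CPM also had the lowest photosystem CPM, and 2 of the WT [dS] libraries lie among the [nS] libraries.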

How the data were processed

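The authors deposited whole-number counts of 3′ tags per gene for each library, with no normalization; 11380 of 37336 genes had no count in any library. TAIR10, STAR 2.7.8a and DESeq2 are named in the submitters' processing notes. How tags were assigned to genes, with which annotation and strand setting, and whether molecular identifiers were collapsed is not given in the sources used here. Reads were 55 nt long.

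The 16 libraries of a tissue (all 32 for shoots over roots) were fitted with edgeR's quasi-likelihood test (edgeR 4.0.16, limma 3.58.1, R 4.3.3; TMM scaling, filterByExpr with a minimum count of 10, robust, 1 mean per group) over all genes: 14593 tested in shoots, 15971 in roots and 17918 in all libraries. TMM factors ran from 0.954 to 1.045 in shoots, from 0.971 to 1.015 in roots and from 0.736 to 1.32 over all. A call needed a fold change above 1.5 besides a two-sided Benjamini-Hochberg adjusted p below 0.05. CPM in the text are counts over the library total, and fold changes are edgeR's fitted values. The 40 genes had 178385 to 461088 counts per shoot library and 610 to 3497 per root library, and root values carry the larger counting error. The fitting steps were run on simulated counts of shoot libraries, with changes well above 1.5-fold. That run does not cover root values or small differences.

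Shares used exact permutation tests. Alternatives were DESeq2 1.42.0, other scalings, organelle genes left out, no filter, adjusted p alone, only the libraries compared, a replicate block, each library left out and, chosen after seeing the data, library totals alone and WT shoots without replicate 1. Replicate 1 had the lowest summed touch and early-stress level of the WT shoots in each medium. The 40 genes and the other lists were chosen with earlier results of these data known. Named with values were genes called in any comparison, the 3 highest and 3 lowest in shoots, members of paralogue sets, and genes whose genotypes did not overlap; of the other lists, called genes. Other genes named were chosen after their values were seen. Replicate numbers were not used as pairs in the main fits. The lowest correlation of same-numbered deviations was between -0.0987 and 0.0398 over the comparisons. In WT shoots, [dS] against [nS], the correlation reached 0.2865 in replicate 1 and 0.3735 in replicate 4, so the numbers may pair some samples. Upstream windows came from RefSeq TAIR10.1.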

Additional observations from a re-analysis of the deposited data

Results flagged for a closer look

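In 9 of 252 sets of 4 libraries, 1 library stood apart from the other 3 by Dixon's test at its 95% critical value, where chance alone gives about 1 in 20. In roots these were LHCB4.2 in WT [dS] replicate 2 (8.80 CPM, others 4.45 to 5.11 CPM), PSBW in q-lsu-KO [dS] replicate 2 (11.5 CPM, others 6.22 to 6.88 CPM) and PSBX in q-lsu-KO [dS] replicate 4 (39.1 CPM, others 23.3 to 25.9 CPM). In shoots, WT [dS] replicate 1 was high in the summed LHCI genes (29025 CPM, others 27400 to 27619 CPM) and in the summed oxygen-evolving genes (23312 CPM, others 21708 to 21888 CPM). PSAF was high in WT [nS] replicate 4 (5316 CPM, others 4874 to 4910 CPM). In q-lsu-KO [nS] shoots, replicate 4 was low in PSAK (3208 CPM, others 3388 to 3404 CPM) and in PSAO (6660 CPM, others 7084 to 7171 CPM), and replicate 3 was high in PSBW (5152 CPM, others 4810 to 4838 CPM).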

How the results depend on the processing

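No called gene changed its direction under the alternatives run, and 40 of 40 genes stayed higher in shoots than in roots without any 1 library. With adjusted p alone and no limit on the fold, 29 genes were called between [dS] and [nS] in q-lsu-KO shoots, 14 in WT shoots and 9 between genotypes in [nS] shoots. Upper-quartile scaling called 1 gene between [dS] and [nS] in q-lsu-KO shoots and 1 between genotypes in [nS] shoots, where DESeq2 also called 1, as did 2 alternatives chosen after seeing the data, scaling by library totals alone and a fit without the replicate-1 WT shoot libraries of both media. In roots, no filter on low counts gave 13 of 40 genes lower in q-lsu-KO [dS], beside 608 of all 24783 genes. It gave 8 of 40 in WT [dS], beside 619 of all 24783. A fit of only the 8 libraries compared gave 13 of 25 tested genes in q-lsu-KO, beside 485 of all 14313 genes. The main fit gave 7 of 33 in q-lsu-KO and 4 of 33 in WT. Leaving out 1 library at a time gave 0 to 1 genes for [dS] over [nS] in q-lsu-KO shoots, 0 to 2 between genotypes in [nS] shoots, 2 to 10 in q-lsu-KO roots and 0 to 9 in WT roots. The causes were not tested. LHCB1.4 was called in 14 of 19 settings and LHCB4.3 in 12 of 19, with log2 fold changes of 0.54 to 0.64 and of −0.75 to −0.66 without 1 library. A replicate block gave 8 genes in q-lsu-KO roots and 3 in WT roots and changed no other count of called genes. Whether the numbers mark paired samples is not given in the labels. In WT roots, [dS] against [nS], all 4 replicates of 4 correlated best with their own number, at correlations of only 0.028 to 0.071. In the other root comparisons 1 or 2 of 4 did so. LHCB4.3 rested on 16 to 57 counts per shoot library. In roots the median biological coefficient of variation of the set, which leaves counting error out, was 0.331, beside 0.066 for all genes tested, so the spread there was more than counting error.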
